A study of Homo sapiens with 4 samples.

Results

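The genes described here encode the vacuolar H+-ATPase (V-ATPase), the proton pump of the lysosome, and the proteins through which the lysosome passes nutrient signals to mTORC1, the kinase complex that sets cell growth. They were taken by symbol: every entry named as an ATP6V0 or ATP6V1 subunit, plus 24 named genes of the pathway. This gave 46 of the 35371 gene symbols in the table. Their mRNA was measured by RNA-seq in A2780, an established ovarian cancer line of human origin, with 2 libraries from cells given GD-07 and 2 from control cells, all grown in 2D. GD-07 is called a MYC inhibitor in the series text, with no dose or duration given. Controls are described there as vehicle-treated, but their sample labels read none for treatment. All 4 libraries come from the same line in the same serum-containing medium, and the labels do not say whether replicates were separate cultures. P-values therefore reflect how far these libraries vary, which may be technical variation alone.

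The V-ATPase has a membrane sector, V0, that carries protons into the lysosome, and a cytosolic sector, V1, that burns ATP to turn it. When amino acids are plentiful, the pump and the Ragulator scaffold act on the Rag GTPases, which bring mTORC1 to the lysosome, where the GTPase RHEB activates it. The TSC complex switches RHEB off. TFEB, TFE3 and MITF are transcription factors that drive lysosomal genes and that active mTORC1 holds in the cytoplasm. MYC with its partner MAX and these 3 factors are all known to bind DNA at the letters CACGTG.

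That shared motif is why promoter sequence is shown here. RefSeq promoter windows on GRCh38.p14, which run from 250 bases before to 50 bases after a start site, were found for 36 of the 46 genes. CACGTG, which reads the same on both strands, was present in at least 1 window of 10 of the 36 (27.8%), against 1186 of 9272 symbols kept for testing (12.8%) and 2396 of all 27305 symbols with a window (8.77%). TCACGTGA, the inner letters of the lysosomal CLEAR element, contains CACGTG and was present in 4 of the 36 (11.1%), against 2.35% of kept symbols and 1.18% of all. The 4 were ATP6V0D1, ATP6V1G1, RRAGB and TSC2. The 30 bases around the motif are given for some of the 10, 5′ to 3′ on the gene's strand, with CACGTG in capitals. Not every site is printed: those of ATP6V0E2, LAMTOR1, LAMTOR4 and FNIP1 are left out. RRAGB held 3 in its window, of which the one after the start site is left out. ATP6V0B held 2, of which the one at -39 is left out. The stretches of ATP6V0B, ATP6V0D1, TSC2 and the second RRAGB site touch an annotated exon. ATP6V0A1, whose window held no CACGTG, is given by the 120 bases before its first annotated exon.
ATP6V0B (chr1:43974891-43974920, plus strand): ccggcgtggggtCACGTGgtaccggcgcat
ATP6V0D1 (chr16:67481199-67481228, minus strand): cccccttatggtCACGTGaggcgcttgcgc
ATP6V1G1 (chr9:114587699-114587728, plus strand): acgctgtgcggtCACGTGacaacgggggcg
RRAGB, first site (chrX:55717622-55717651, plus strand): ctgagccaaggcCACGTGatgatgacagac
RRAGB, second site (chrX:55717712-55717741, plus strand): ggtagcggcagtCACGTGacagactccggg
RRAGC (chr1:38859867-38859896, minus strand): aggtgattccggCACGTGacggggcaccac
TSC2 (chr16:2047859-2047888, plus strand): atgcggccccgtCACGTGatgcaaggatcg
ATP6V0A1 (chr17:42458724-42458843, plus strand): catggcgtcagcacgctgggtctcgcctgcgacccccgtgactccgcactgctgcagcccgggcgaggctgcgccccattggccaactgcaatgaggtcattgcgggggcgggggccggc
In the 4 sites that match TCACGTGA, the base before the capitals is t and the base after them is a. A match is a description of letters and does not show that a factor binds there. The median log2 fold change, GD-07 minus control, was 0.30 over the 10 members with CACGTG and 0.16 over 24 tested members whose windows lacked it. It was 0.21 over the 9 tested members with no window. The 10 with CACGTG ranged from -0.72 for TSC2 to 0.77 for RRAGB. The 24 without it ranged from -0.20 to 0.82, and the 9 with no window from -0.64 to 0.81. The difference between these sets was not tested.

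Values were deposited as TPM, transcript abundance per length scaled to each library's total, from which sequencing depth cannot be recovered; the depth of these libraries is unknown. The columns summed to between 912781 and 918646 TPM. The GD-07 pair correlated at r = 0.982 over genes on the log2 scale and the control pair at r = 0.993. Mitochondrially encoded transcripts took 2.52% and 6.52% of the listed TPM in GD-07 replicates 1 and 2, against 4.36% and 3.72% in control replicates 1 and 2. GD-07 replicate 2 thus stood apart from the others, and it also listed the most symbols at 0, which were 14683, while the other libraries had between 11598 and 12346. Of the 9 ovarian and epithelial markers, 3 passed the filter on low values: KRT18, EPCAM and VIM. KRT7 was listed at 0 in all 4 libraries, and PAX8, WT1 and MUC16 were at most 0.121 TPM. KRT18 lay between 4.40 and 5.82 TPM. EPCAM, an epithelial adhesion gene, was at 2.12 and 4.29 TPM with GD-07, against 1.41 and 1.48 TPM in controls, and did not pass (log2 fold change 0.73 ± 0.27, limma adjusted p = 0.141). The mesenchymal filament gene VIM reached 2302 and 2485 TPM in GD-07 libraries and 2656 and 2315 TPM in controls. Summed immune markers (6 genes) lay between 5.94 and 6.41 TPM with GD-07 and between 7.24 and 8.69 TPM in controls, and endothelial markers (4 genes) summed to at most 0.693 TPM. The 7 osteoclast and renal intercalated cell markers, whose cells use restricted V-ATPase isoforms, summed to 0.146 and 2.20 TPM with GD-07 and to 0.468 and 0.126 TPM in controls. Of these, CTSK alone was at 0 and 2.08 TPM with GD-07 and at 0.330 and 0 TPM in controls. Fibroblast and mesothelial markers (6 genes) summed to 24.6 and 39.3 TPM with GD-07, against 51.2 and 40.6 TPM in controls. Within that list COL1A1 had -0.56 (limma adjusted p = 0.184) and LUM -0.49 (0.189), both with GD-07 below both controls. PDGFRB (-0.39) and COL1A2 (-0.01) overlapped between groups. Under the filter, DCN lay below both controls, at 0.649 and 0.433 TPM with GD-07, against 1.32 and 1.20 TPM. MSLN, also under it, went the other way, at 0.873 and 1.21 TPM with GD-07, against 0.831 and 0.594 TPM in controls. No marker passed, and the part of these shifts in the results was not tested. MYC mRNA was at 29.1 and 23.6 TPM with GD-07, against 86.0 and 67.5 TPM in controls. It passed as lower (log2 fold change -1.50 ± 0.18, limma adjusted p = 0.0109), though not with no filter on low values (0.219).

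Among the members, ATP6V0A1 was the only gene whose level differed past the threshold, an adjusted p under 0.05 from limma on log2(TPM + 1) over the 13063 genes that averaged 1 TPM or more. It rose with GD-07. Of the 46 members, 43 passed that filter, all with a mean of at least 1 TPM in both groups, and 42 of these did not pass the test. The 1 call is 2.33% of 43, against 5.21% called among all genes, 2.02% (264) higher and 3.19% (417) lower, so the number of calls is not a result about these genes. With quantile normalization the split over all genes was 383 higher and 395 lower. In values rather than calls, the list leaned upward: 36 of 43 (83.7%) had a positive log2 fold change, against 46.2% of all genes, with a median of 0.18, against -0.04 over all genes. Both GD-07 libraries lay above both controls for 23 members (53.5%, against 25.3% of all genes) and below both for 4 (9.3%, against 30.5%). At an unadjusted p under 0.05, 12 members were on the higher side (27.9%, against 10.1% of all genes) and 2 on the lower (4.65%, against 14.7%). Without GD-07 replicate 2 the number with a positive log2 fold change was 32 of 43, and the median was 0.16. These counts describe the list, since its members share the same 4 libraries and are not independent. In bulk RNA, fewer cells that express a gene and less of its RNA in each cell cannot be told apart.

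**Figure D1:**
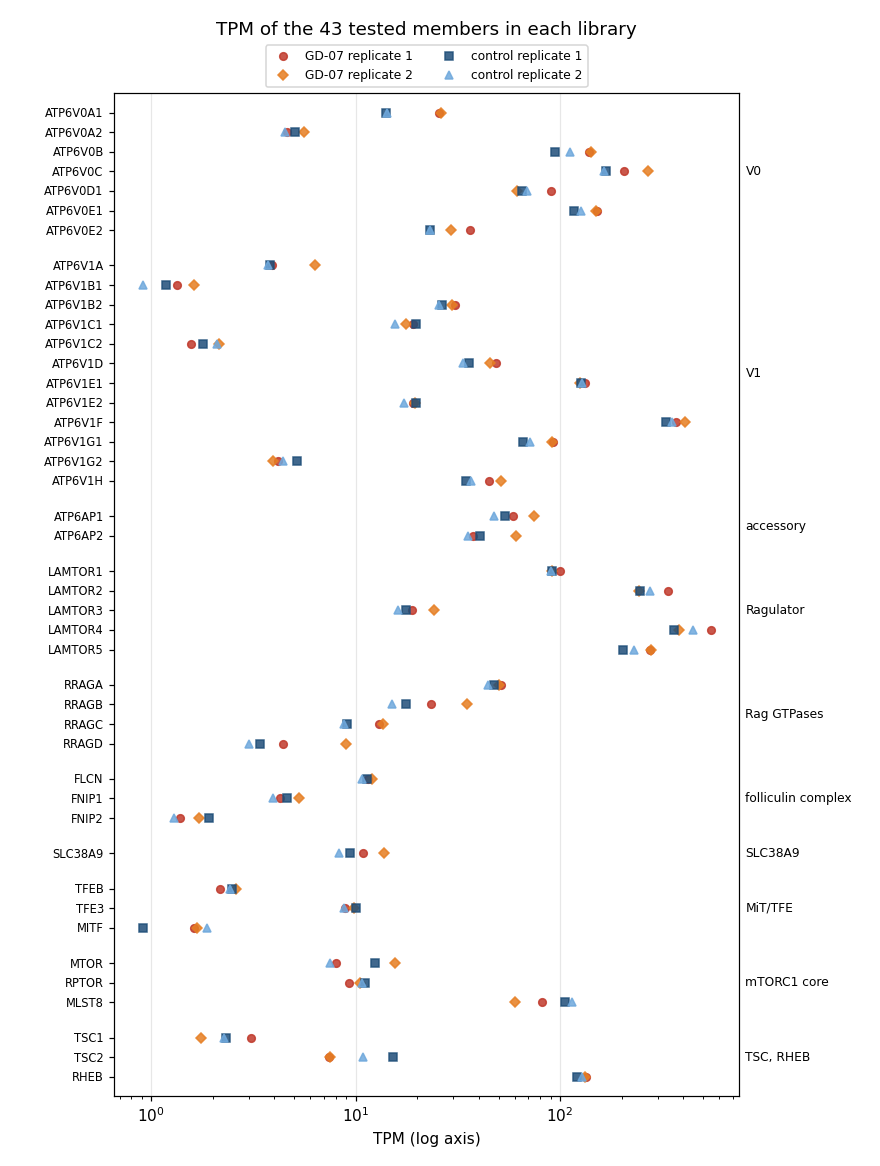
TPM on a log axis of the 43 members that passed the filter, ordered by role, with 1 point per library (2 GD-07 and 2 control libraries). Both GD-07 points lie to the right of both control points for 23 members and to the left of both for 4, among them MLST8 and TSC2.

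**Figure D2:**
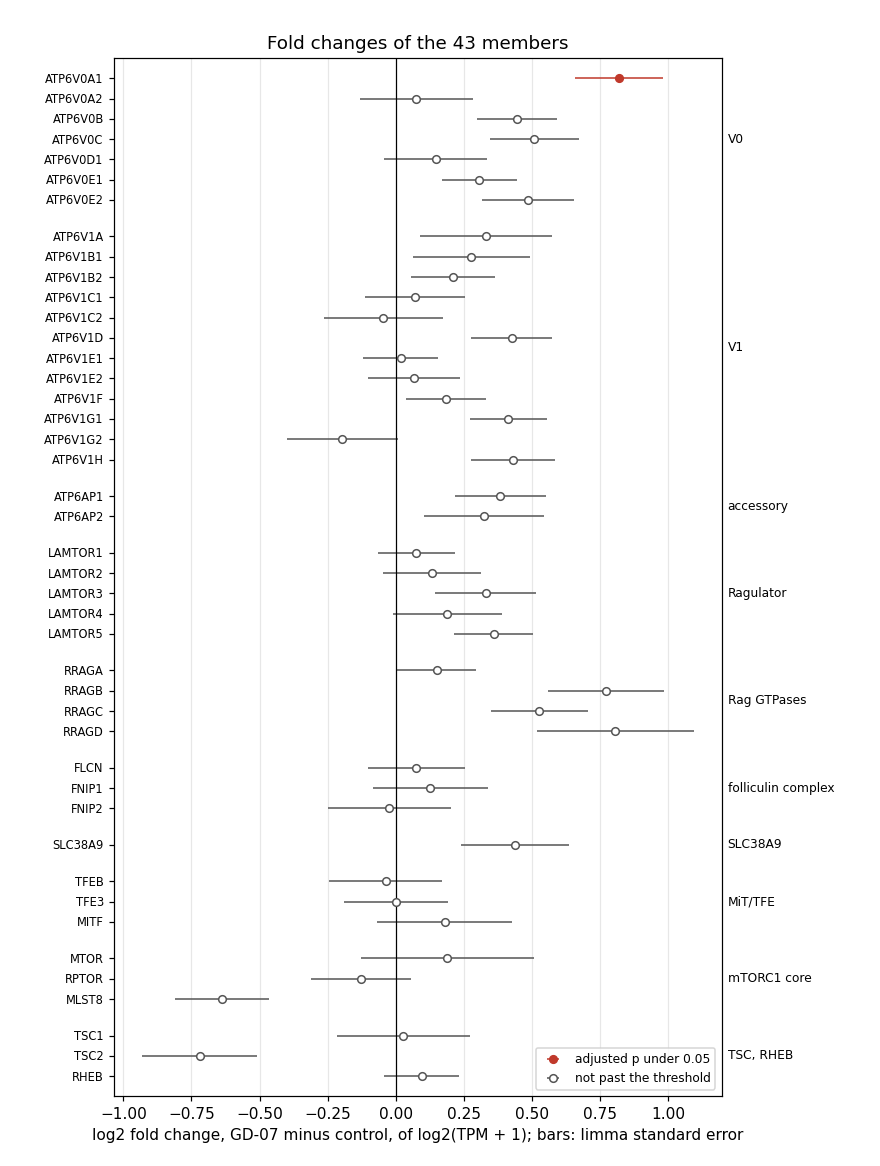
Log2 fold change, GD-07 minus control, of the same 43 members with limma's standard error as bars, where filled points passed an adjusted p under 0.05. ATP6V0A1 at 0.82 is the filled point, and the range runs from -0.72 (TSC2) to 0.82.

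In the V0 sector all 7 tested subunits had positive log2 fold changes (100%, against 46.2% of all genes), with a median of 0.45. ATP6V0A1 encodes the a1 isoform of the large subunit that holds the proton channel and decides where in the cell the pump sits. It was at 25.4 and 26.0 TPM in the GD-07 libraries, against 14.1 and 14.2 TPM in the controls. Replicates of each group lay close together, and the groups were far apart. The means were 25.7 ± 0.427 and 14.2 ± 0.109 TPM (SD, n = 2 each), a ratio of 1.82, and the difference on the log2 scale was 0.82 with a standard error of 0.16 (limma adjusted p = 0.0311). ATP6V0A1 (ENSG00000033627) spans 42458844 to 42522611 of chromosome 17 in GRCh38, on the plus strand, and overlaps 4 other annotated entries on the same strand. The size of the difference stayed between 0.68 and 0.87 over 15 alternative settings, while it lost the call when control replicate 1 (limma adjusted p = 0.101) or control replicate 2 (0.0598) was left out, and with no filter on low values (0.219).

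The proton-carrying ring is built from the c subunits. ATP6V0C, its main proteolipid, was at 206.4 and 267.8 TPM with GD-07, against 167.1 and 163.1 TPM in controls (log2 fold change 0.51 ± 0.16, limma adjusted p = 0.0994). ATP6V0B, the c″ subunit, was at 139.1 and 141.3 TPM with GD-07, against 94.6 and 111.4 TPM in controls (0.45 ± 0.15, limma adjusted p = 0.105). For both, the groups did not overlap, although neither passed. ATP6V0C depended on GD-07 replicate 2: its log2 fold change was 0.69 without GD-07 replicate 1, where it passed (limma adjusted p = 0.00485), and 0.32 without GD-07 replicate 2. ATP6V0E2, an isoform of the small subunit e, was at 36.4 and 29.2 TPM with GD-07, against 23.0 and 23.0 TPM in controls (0.49 ± 0.17, limma adjusted p = 0.12). Its more abundant relative ATP6V0E1 was at 152.0 and 149.3 TPM with GD-07, against 117.4 and 125.9 TPM in controls (0.31 ± 0.14, limma adjusted p = 0.21). The groups did not overlap for either isoform. ATP6V0D1, which couples the ring to the rotor, overlapped between groups, at 89.9 and 61.5 TPM with GD-07 and 65.3 and 69.0 TPM in controls. ATP6V0A2, an isoform of subunit a found in the Golgi and endosomes, overlapped as well, at 4.60 and 5.61 TPM with GD-07 and 5.04 and 4.52 TPM in controls. ATP6V0D2, restricted in the body to cells such as osteoclasts, was below the filter at 0.354 and 0.235 TPM with GD-07, against 0.702 and 0.762 TPM in controls. The renal isoform ATP6V0A4 was at most 0.0976 TPM in any library.

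Of the 12 tested V1 subunits none passed in limma, and the median log2 fold change was 0.20. At an unadjusted p under 0.05, 3 were on the higher side (25%, against 10.1% of all genes). The groups did not overlap for 8, with GD-07 above in 7 (58.3%, against 25.3% of all genes) and below in ATP6V1G2 (8.33%, against 30.5%). ATP6V1D, part of the central rotor, was at 48.5 and 45.4 TPM with GD-07, against 36.0 and 33.5 TPM in controls (0.43 ± 0.15, limma adjusted p = 0.122). ATP6V1H, which regulates coupling of the sectors, was at 45.1 and 51.3 TPM with GD-07, against 34.5 and 36.5 TPM in controls (0.43 ± 0.15, limma adjusted p = 0.126). ATP6V1G1, part of the peripheral stalks, was at 91.8 and 91.8 TPM with GD-07, against 66.002 and 71.445 TPM in controls (0.41 ± 0.14, limma adjusted p = 0.114). In these 3 genes each GD-07 library was above each control. The catalytic subunit ATP6V1A was among the low ones, at 3.90 and 6.36 TPM with GD-07, against 3.81 and 3.74 TPM in controls. GD-07 replicate 1 thus sat close to the controls and replicate 2 apart from them (0.33 ± 0.24, limma adjusted p = 0.43). ATP6V1F, a rotor subunit, was the most abundant V1 transcript, at 368.1 and 407.1 TPM with GD-07, against 328.3 and 353.0 TPM in controls.

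The remaining V1 genes had log2 fold changes between -0.20 and 0.28. ATP6V1B2, the common B isoform, was at 30.6 and 29.7 TPM with GD-07, against 26.4 and 25.6 TPM in controls, and its renal relative ATP6V1B1 stood near the filter at 1.33 and 1.62 TPM, against 1.18 and 0.909 TPM. ATP6V1E1 of the stalks was at 132.0 and 125.7 TPM with GD-07 and at 126.3 and 128.2 TPM in controls, a log2 fold change of 0.02 ± 0.14. ATP6V1C1, ATP6V1C2 and ATP6V1E2 overlapped between groups, with log2 fold changes of 0.07, -0.05 and 0.07. ATP6V1G2, the G isoform typical of neurons, was at 4.17 and 3.93 TPM with GD-07, against 5.17 and 4.41 TPM in controls (-0.20 ± 0.20). Its readthrough partner entry, ATP6V1G2-DDX39B, was at 0.143 and 0.130 TPM with GD-07, against 3.47 and 1.02 TPM in controls (limma adjusted p = 0.0497), and reads of the shared exons cannot be told apart. ATP6V1G3 was listed at 0 in 3 libraries and at 0.0644 TPM in GD-07 replicate 1.

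Neither accessory protein of the pump passed, and both were highest in GD-07 replicate 2. ATP6AP1, needed for V0 assembly, was at 58.6 and 74.5 TPM with GD-07, against 53.5 and 47.6 TPM in controls (0.38 ± 0.17, limma adjusted p = 0.196). Its log2 fold change was 0.55 without GD-07 replicate 1, where it passed (limma adjusted p = 0.033), and 0.21 without GD-07 replicate 2. ATP6AP2, the prorenin receptor, was at 37.7 and 60.9 TPM with GD-07, against 40.7 and 35.6 TPM in controls (0.32 ± 0.22, limma adjusted p = 0.395). In ATP6AP2 the groups overlapped: without GD-07 replicate 2 the log2 fold change was -0.01, and without GD-07 replicate 1 it was 0.66.

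Ragulator is a scaffold of 5 small proteins. None of its genes passed in limma, and the median log2 fold change was 0.19. At an unadjusted p under 0.05, 1 was on the higher side (20%, against 10.1% of all genes). LAMTOR5, a subunit of the heterodimer that caps the scaffold, was at 276.4 and 278.7 TPM with GD-07, against 203.1 and 230.3 TPM in controls (0.36 ± 0.14, limma adjusted p = 0.167). LAMTOR3 was at 18.8 and 24.2 TPM with GD-07, against 17.5 and 16.0 TPM in controls (0.33 ± 0.18, limma adjusted p = 0.302). LAMTOR1, the lipid-anchored subunit that ties the scaffold to the lysosome, was at 100.1 and 91.4 TPM with GD-07, against 91.3 and 90.2 TPM in controls. LAMTOR1, LAMTOR3 and LAMTOR5 did not overlap between groups, with GD-07 above (60% of the 5, against 25.3% of all genes). LAMTOR2 (335.9 and 242.7 TPM with GD-07, against 245.7 and 276.0 TPM in controls) and LAMTOR4 (546.1 and 383.5 TPM with GD-07, against 360.4 and 447.3 TPM in controls) did, and both differed more within the GD-07 pair than between group means. LAMTOR3 was the lowest of the 5 in every library and LAMTOR4 the highest.

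The Rag GTPases work as heterodimers of RagA or RagB with RagC or RagD. All 4 genes had both GD-07 libraries above both controls (100%, against 25.3% of all genes). None passed in limma, and 3 of 4 had an unadjusted p under 0.05 on the higher side (75%, against 10.1% of all genes). RRAGB was at 23.3 and 34.9 TPM with GD-07, against 17.6 and 15.1 TPM in controls. The GD-07 libraries differed from each other by more than the lower of them differed from the controls, and the log2 fold change was 0.77 ± 0.21 (limma adjusted p = 0.0677). RRAGB spans 55717739 to 55758774 of chromosome X in GRCh38, on the plus strand, with no overlapping gene. RRAGD was at 4.39 and 8.97 TPM with GD-07, against 3.39 and 3.01 TPM in controls (0.81 ± 0.29, limma adjusted p = 0.128). RRAGC was at 12.95 and 13.54 TPM with GD-07, against 9.02 and 8.76 TPM in controls (0.53 ± 0.18, limma adjusted p = 0.113). In RRAGC the replicates were close, whereas in RRAGD the GD-07 value rested largely on replicate 2: the log2 fold change was 0.36 without it and 1.25 without GD-07 replicate 1. RRAGA, the most abundant Rag gene, was at 51.6 and 50.4 TPM with GD-07, against 47.3 and 44.4 TPM in controls (0.15 ± 0.15, limma adjusted p = 0.558). RRAGB passed in 6 of 15 alternatives, among them median-ratio scaling (limma adjusted p = 0.0482). Its log2 fold change was 1.06 without GD-07 replicate 1 but 0.49 without GD-07 replicate 2.

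Paralogues that take the same place in a complex were compared by their share of the summed TPM of that place, in each library. At V0 subunit a, the ATP6V0A1 share was 27.7% and 27.9% with GD-07, against 17.5% and 17.8% in controls. TCIRG1, which encodes the a3 isoform and lies outside the symbol rule, held 67.2% and 66.1% with GD-07, against 76.3% and 76.4% in controls. TCIRG1 itself was at 61.6 and 61.7 TPM with GD-07 and at 61.5 and 60.9 TPM in controls, so the summed level of subunit a was 91.7 and 93.4 TPM with GD-07, against 80.6 and 79.8 TPM. Between RRAGA and RRAGB, RRAGB held 31.1% and 40.9% with GD-07, against 27.1% and 25.4% in controls. Between RRAGC and RRAGD, RRAGD held 25.3% and 39.8% with GD-07, against 27.3% and 25.6% in controls, and there the groups overlapped. ATP6V1G1 held 95.6% and 95.9% of the G subunits with GD-07, against 92.7% and 94.2% in controls. The shares of V1 subunit B, C and E isoforms overlapped between groups, as did those of TFE3 and MITF. Those of V0 subunit d and e isoforms, of FNIP1 with FNIP2 and of TFEB did not. The gap could be small: ATP6V0E2 held 19.3% and 16.379% with GD-07, against 16.376% and 15.4% in controls. The shares were not tested.

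**Figure D3:**
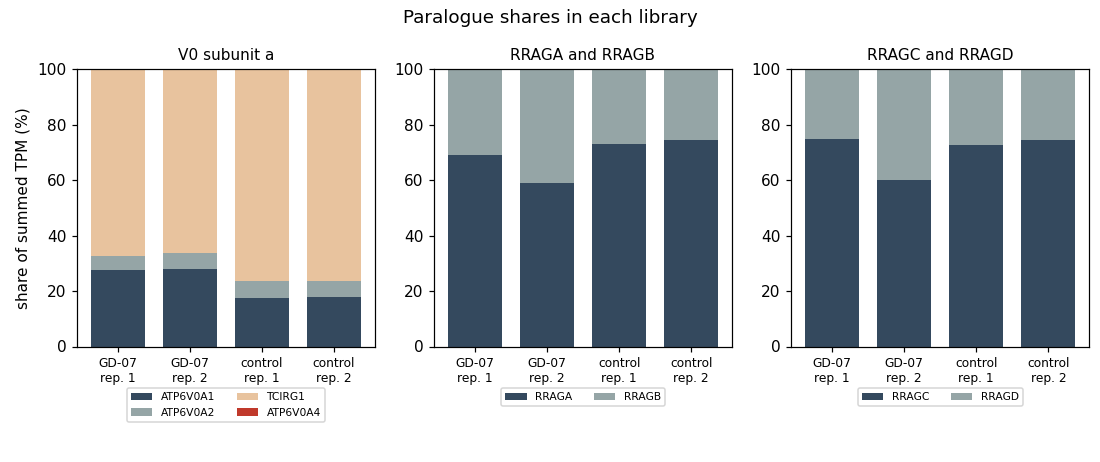
Share of summed TPM (percent) held by each paralogue of V0 subunit a, of RRAGA with RRAGB, and of RRAGC with RRAGD, as stacked bars for the 2 GD-07 and 2 control libraries. The ATP6V0A1 segment is 27.7% and 27.9% in the GD-07 bars and 17.5% and 17.8% in the control bars, while the RRAGD segment of GD-07 replicate 1 (25.3%) is near the controls.

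SLC38A9 and the folliculin genes did not pass. SLC38A9, which senses arginine at the lysosomal membrane, was at 10.8 and 13.8 TPM with GD-07, against 9.34 and 8.26 TPM in controls. The groups did not overlap (0.44 ± 0.20, limma adjusted p = 0.213). FLCN, the folliculin GTPase activator that acts on RagC and RagD, was at 11.48 and 11.99 TPM with GD-07, against 11.4 and 10.8 TPM in controls (0.07 ± 0.18). Its partners FNIP1 and FNIP2 overlapped between groups, with log2 fold changes of 0.13 and -0.02.

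None of the 3 MiT/TFE factor genes passed in limma or had an unadjusted p under 0.05. TFE3, the most abundant, was at 8.90 and 9.87 TPM with GD-07 and at 10.0 and 8.74 TPM in controls, with a mean of 9.38 TPM in each group. TFEB was at 2.16 and 2.59 TPM with GD-07 and at 2.50 and 2.42 TPM in controls (-0.04 ± 0.21, limma adjusted p = 0.932). MITF was at 1.62 and 1.68 TPM with GD-07 and at 0.913 and 1.87 TPM in controls. All 3 overlapped between groups, and mRNA levels carry no information on where the proteins sit in the cell. MITF and ATP6V1B1 were the members nearest to the filter from above, and ATP6V0D2 the nearest from below.

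Genes of mTORC1 itself and of the TSC branch had medians near or below 0. MLST8, a subunit that mTORC1 shares with mTORC2, was at 81.8 and 60.2 TPM with GD-07, against 105.5 and 114.3 TPM in controls (-0.64 ± 0.17, limma adjusted p = 0.0662). TSC2, the catalytic subunit that inactivates RHEB, was at 7.38 and 7.46 TPM with GD-07, against 15.3 and 10.8 TPM in controls (-0.72 ± 0.21, limma adjusted p = 0.0793). In both genes the GD-07 libraries were below both controls, and in TSC2 the controls differed from each other far more than the GD-07 libraries did. TSC1, its stabilizing partner, was at 3.09 and 1.75 TPM with GD-07 and at 2.31 and 2.27 TPM in controls (0.03 ± 0.24). RHEB was at 133.8 and 131.9 TPM with GD-07, against 120.9 and 127.7 TPM in controls (0.10 ± 0.14). RPTOR, the subunit that recognizes substrates, was at 9.30 and 10.50 TPM with GD-07, against 11.05 and 10.77 TPM in controls (-0.13 ± 0.18). The kinase gene MTOR had the largest standard error of the 43 members, at 7.98 and 15.6 TPM with GD-07 and at 12.5 and 7.51 TPM in controls (0.19 ± 0.32). MLST8 passed in 4 of 15 alternatives and TSC2 in 3, all lower. Among these, leaving out GD-07 replicate 1 brought MLST8 past the threshold (limma adjusted p = 0.00264), and leaving out control replicate 2 did so for TSC2 (0.04998).

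TSC2 spans 2047465 to 2089487 and MLST8 2204248 to 2209416 of chromosome 16 in GRCh38, both on the plus strand. NTHL1 and PKD1 overlap TSC2 on the other strand. PKD1 was at 100.2 and 90.3 TPM with GD-07 and at 116.2 and 93.6 TPM in controls, and NTHL1 at 26.4 and 21.8 TPM with GD-07 and at 18.3 and 22.9 TPM in controls. BRICD5 overlaps MLST8 on the other strand, at 23.5 and 19.5 TPM with GD-07 and 15.6 and 15.7 TPM in controls. Whether strand was used is not given in the sources used here, so reads from the overlaps cannot be told apart and both values are uncertain to that extent. Copies of RHEB, RHEBP1 and RHEBP2, were listed at up to 3.59 and 7.59 TPM, low beside RHEB.

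Beyond the members, 68 other genes of the pathway were listed by role, and 64 passed the filter. Of these 2 rose, 2 fell and 60 did not pass, or 6.25% called against 5.21% of all genes, and the median log2 fold change was -0.02. The calls were thus close in number to the background. ITFG2, a subunit of the KICSTOR complex that holds GATOR1 at the lysosome, was at 35.5 and 37.5 TPM with GD-07, against 18.1 and 21.4 TPM in controls. It rose by 0.86 ± 0.16 in log2 units (limma adjusted p = 0.0281). FOXM1 overlaps ITFG2 on the other strand and was at 34.9 and 35.9 TPM with GD-07, against 49.9 and 48.4 TPM in controls. TBC1D7, the third subunit of the TSC complex, was at 48.91 and 49.98 TPM with GD-07, against 26.6 and 29.5 TPM in controls, and rose by 0.80 ± 0.15 (limma adjusted p = 0.0276).

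The kinases AKT1 and AKT2, which phosphorylate TSC2 and so relieve its block on RHEB, both fell. AKT1 was at 59.03 and 58.27 TPM with GD-07, against 129.2 and 97.3 TPM in controls, and fell by 0.92 ± 0.17 in log2 units (limma adjusted p = 0.0258). AKT2 was at 53.1 and 49.7 TPM with GD-07, against 96.1 and 76.3 TPM in controls, and fell by 0.72 ± 0.16 (limma adjusted p = 0.0397). Within the TSC complex, then, the 3 subunit genes had log2 fold changes of -0.72 (TSC2), 0.03 (TSC1) and 0.80 (TBC1D7). Without control replicate 1 none of the 4 calls of the wider pathway held. The log2 fold changes there were 0.74 (ITFG2), 0.73 (TBC1D7), -0.72 (AKT1) and -0.56 (AKT2). AKT1 and TBC1D7 also missed the threshold without limma's intensity trend (adjusted p = 0.0505 and 0.0507). AKT2 missed it there (0.0751), with quantile normalization (0.0514) and after rescaling without mitochondrial and top entries (0.0539).

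By role, the GATOR2 complex, which frees mTORC1 from GATOR1, had negative log2 fold changes for all 5 genes, with a median of -0.41. Over all genes 46.2% had positive ones. No GATOR2 gene passed the threshold in limma, and 2 were lower at an unadjusted p under 0.05 (40%, against 14.7% of all genes). SEH1L, a subunit it shares with the nuclear pore, was at 19.6 and 20.7 TPM with GD-07, against 31.3 and 26.7 TPM in controls (-0.50 ± 0.17, limma adjusted p = 0.105). WDR59 was at 50.2 and 42.9 TPM with GD-07, against 67.9 and 57.4 TPM in controls (-0.42 ± 0.16, limma adjusted p = 0.151). AKT1S1, the mTORC1 inhibitor PRAS40, was at 48.8 and 43.3 TPM with GD-07, against 69.6 and 64.9 TPM in controls (-0.54 ± 0.15, limma adjusted p = 0.0689). KXD1 and BORCS8 of the BORC complex, which positions lysosomes, had log2 fold changes of -0.47 and -0.46 (limma adjusted p = 0.0865 and 0.176). EIF4EBP2, a repressor of cap-dependent translation that mTORC1 phosphorylates, had 0.44 ± 0.19 (limma adjusted p = 0.193). Among V-ATPase assembly factors, VMA21 had 0.44 (limma adjusted p = 0.193) and TMEM199 -0.34 (0.24). Of the amino acid sensors, GATSL2 (CASTOR2) had 0.26 and BMT2 (SAMTOR) 0.34. GATOR1 genes had 0.43 (DEPDC5) and -0.16 (NPRL3), and the lysosomal channel TMEM175 had 0.38, whereas the transporter SLC15A4 had -0.31. None of these genes passed, although without GD-07 replicate 1 WDR59, AKT1S1, KXD1 and BORCS8 did, all lower (limma adjusted p between 0.0175 and 0.0448).

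**Figure D4:**
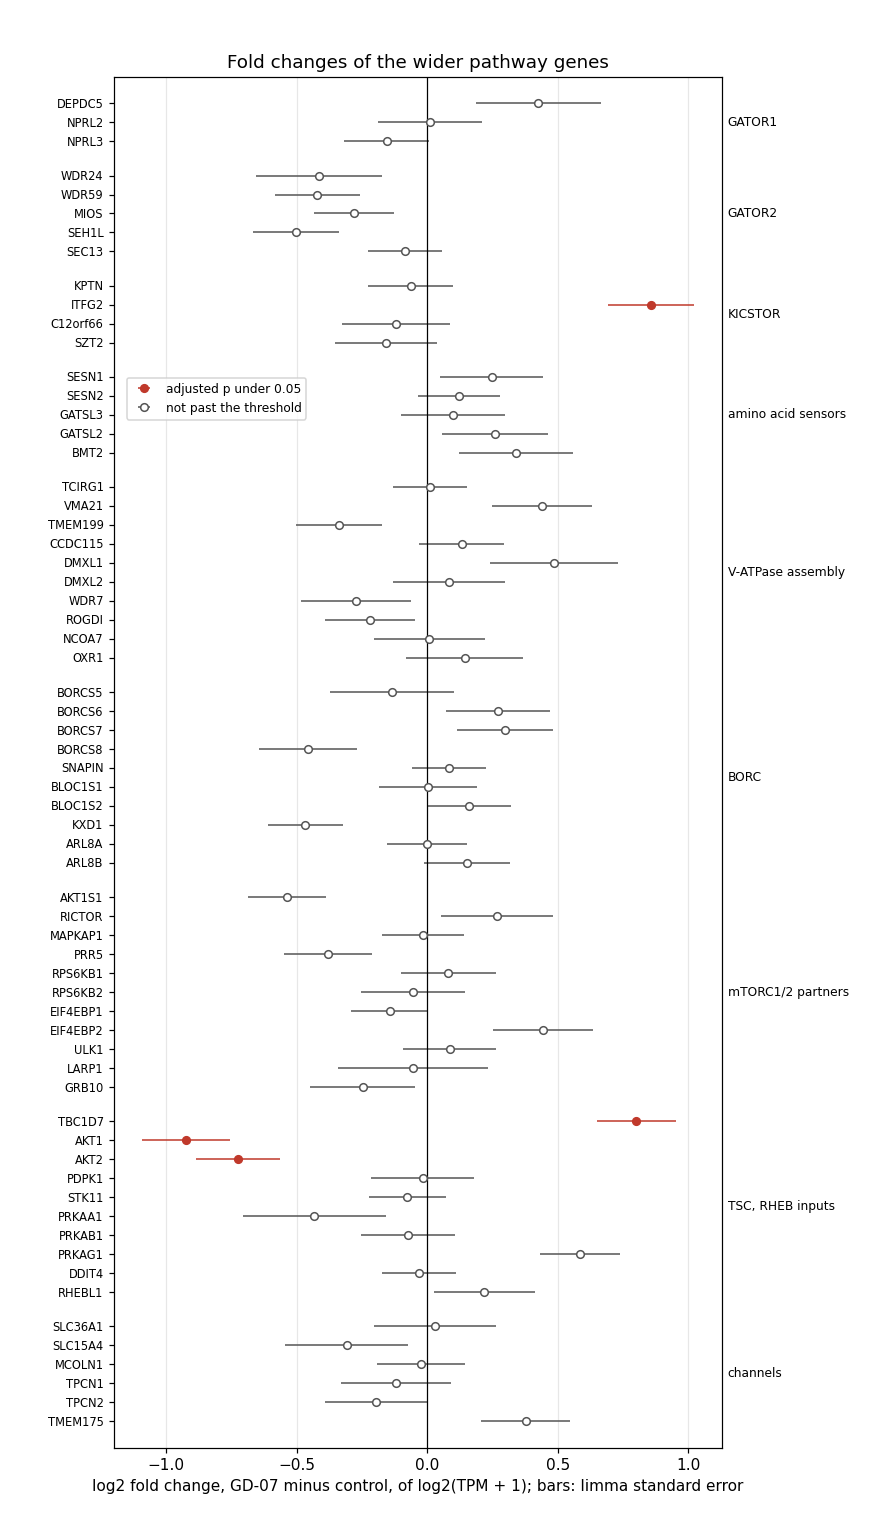
Log2 fold change, GD-07 minus control, of 64 further pathway genes ordered by role, with limma's standard error as bars and filled points for an adjusted p under 0.05. The filled points are ITFG2 (0.86) and TBC1D7 (0.80) on the right and AKT1 (-0.92) and AKT2 (-0.72) on the left.

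Transcript base composition moved with the comparison over all genes. With genes in 4 equal bins of GC content, the median log2 fold change was 0.04 in the lowest bin, 0.00 and -0.07 in the next ones, and -0.12 in the highest. MLST8 (63.9% GC), TSC2 (60.4%), AKT1 (59.3%) and AKT2 (59.7%) lie in the highest bin, as do ATP6V0C (65.1%), ATP6V0E2 (62.2%) and ATP6V0B (58.9%). ATP6V0A1 (49.7%), RRAGB (45.3%), RRAGC (44.9%) and RRAGD (41.5%) lie in the 2 lower bins. After log2 values were corrected for GC content and length in each library, 6 members were higher and 1 lower by limma at an adjusted p under 0.05, instead of 1 and none, an alternative chosen after seeing the data. ATP6V0A1, ATP6V0B, ATP6V0E2, RRAGB, RRAGC and RRAGD were then the higher ones and TSC2 the lower. In that fit 886 of 11595 genes were higher and 887 lower, and MLST8 did not pass (limma adjusted p = 0.0543). GC content also moved with single libraries. The median of GD-07 replicate 2 minus replicate 1 was 0.24 in the lowest bin and -0.09 in the highest, and that of control replicate 1 minus replicate 2 was 0.19 in the lowest and 0.05 in the highest. Its part in the results was not tested beyond that correction.

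**Figure D5:**
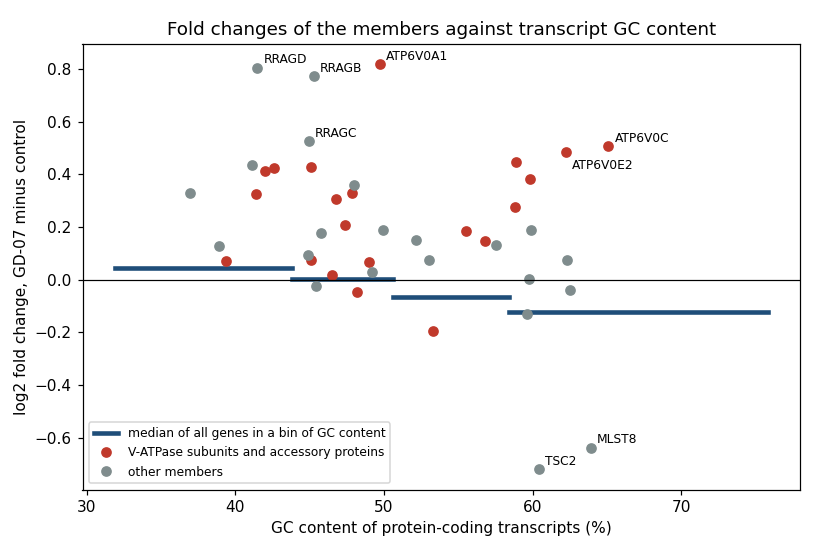
Log2 fold change, GD-07 minus control, of the 43 members against the GC content (percent) of their protein-coding transcripts, with bars for the median of all genes in each bin of GC content. The bars step down from 0.04 to -0.12, MLST8 and TSC2 lie below the last bar, and RRAGB, RRAGC, RRAGD and ATP6V0A1 lie above the first 2.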

How the data were processed

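Messenger RNA of 4 A2780 libraries was sequenced, and the authors deposited 1 table of TPM per gene symbol. The submitters' processing notes name GRCh38, kallisto, Subread and limma 3.60.4 without their roles. TPM keeps no read depth, so no counting interval was computed. Samples were grouped by their labels. Genes that averaged 1 TPM or more were tested on log2(TPM + 1) with limma 3.58.1 in R 4.3.3 (empirical Bayes with an intensity trend, Benjamini-Hochberg over all genes tested). Adding 1 TPM before taking logs makes the fold change of low genes too small. An exact permutation test of 2 against 2 libraries cannot go below p = 0.333, so none is reported. The members, gene lists and tests were chosen with earlier results of these data known. The text names every member, the wider pathway genes past the threshold or otherwise the 2 of each role with the smallest p, and MYC. Overlapping genes, readthrough entries, copies, TCIRG1 and markers were named in addition. Transcript GC content and length are medians over protein-coding GENCODE 29 transcripts, and promoters are RefSeq windows. Replicate numbers were not used to pair the samples in the main fit. Comparison of paralogue proteins was not analysed here. Tables were handled in Python 3.11.15.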

Additional observations from a re-analysis of the deposited data

How the results depend on the processing

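The member median of 0.18 stayed between 0.14 and 0.23 under all 15 alternatives, and ATP6V0A1 passed in 12 of them. Over all genes 264 were higher and 417 lower. These counts became 0 and 0 with no filter on low values by limma (3970 genes at an unadjusted p under 0.05), 158 and 227 without the trend, 182 and 250 after rescaling without mitochondrial and the top 10 entries, 334 and 550 of 9621 with a mean of at least 5 TPM, 355 and 407 with median-ratio scaling, and 886 and 887 after GC and length correction. Leaving out 1 library gave 150 to 874 higher and 160 to 1343 lower. Members called, 1 higher and 0 lower, became 0 and 0 with no filter by limma (14 at an unadjusted p under 0.05), 2 and 1 with a mean of at least 5 TPM, 2 and 0 with median-ratio scaling, and 6 and 1 after GC and length correction. Member calls also moved when 1 library was left out, as calls over all genes did. The member median then lay between 0.16 (without GD-07 replicate 2) and 0.22 (without control replicate 1). For ATP6AP2, leaving out 1 library gave log2 fold changes from -0.014 (without GD-07 replicate 2, reversed) to 0.66. Wider pathway calls, 2 and 2, became 0 and 0 with no filter by limma (12 at an unadjusted p under 0.05), 1 and 0 without the trend, 2 and 1 after rescaling, 3 and 1 with quantile normalization and 4 and 3 after GC and length correction. Leaving out 1 library moved these calls as well. With the replicate number as a block, 320 genes were higher and 592 lower, and 2 members were higher and 1 lower, RRAGB and MLST8 being added. Deviations of same-numbered libraries correlated at -0.28, which with 2 libraries a group cannot settle whether the number pairs them. The crossed pairing, added after seeing the data, gave 1198 and 1736 genes, 8 and 2 members, and 6 and 7 wider pathway genes. The causes of these shifts were not tested. With 2 libraries a group, precision is limited by their number, and depth is unknown. Where a library was left out, limma took the spread of the single one left from the opposite group.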
